A study of Homo sapiens with 20 samples.

Results

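Intermediate filament genes were followed through the conversion of human neural progenitor cells into neurons, to ask how the levels of progenitor, epithelial and neuronal filament transcripts moved over the time course. The set held 10 genes, NES, VIM and SYNM of progenitors, KRT8, KRT18 and KRT19 of simple epithelia, and NEFL, NEFM, INA and PRPH of neurons. Each gene was taken as the protein-coding record that carried its symbol, and, where a symbol had several, as the record with the highest mean over the days. All 10 were found, among 20237 coding records and 38369 records in all.

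The cells were derived from the established human embryonic stem cell line H1 and had been grown as neural progenitors with FGF, a growth factor that keeps them dividing. FGF was withdrawn and BDNF, a neurotrophic factor, was added on day 0, and polyadenylated RNA was sequenced at 7 times from day 0 to day 18. There were 3 cultures at each time except day 5, which kept 2 after the submitters removed 1 as an outlier. Every culture came from this 1 line, and no cultures kept in FGF were measured at the later days, so time in culture and the change of medium cannot be told apart. Cells for days 5, 11 and 18 had been lifted and replated at day 4 from Matrigel to a poly-D-lysine and laminin surface. No treatment other than the medium and the surface distinguishes the days. The values are FPKM, fragment counts scaled by transcript length and sequencing depth, so that levels can be compared between genes. The deposited table holds 1 FPKM per record and day, which the authors obtained from all cultures of the day together. No spread between cultures and no read depth is known, so no difference given here has an error or a test, and genes with neighbouring levels cannot be ranked beyond their listed order. Because these are bulk cultures, fewer cells of a type and less RNA per cell cannot be told apart.

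Intermediate filaments are ropes of coiled-coil proteins that give cells mechanical strength, and their makeup is a classic sign of cell type. Neural stem cells are known for nestin (NES) and vimentin (VIM), simple epithelia for the keratin pair 8 and 18, and axons for the neurofilament triplet, in which the light chain NEFL forms the core and the medium chain NEFM carries long side arms. Alpha-internexin (INA) is a neurofilament partner known to appear early in central neurons, peripherin (PRPH) is typical of peripheral neurons, and synemin (SYNM) is a large protein that joins vimentin or desmin filaments.

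All members but SYNM, in which the search found no match, held the closing stretch of the central rod. The rod is the part through which filament proteins pair and pack. The stretch is shown here because it marks the family relation, although its bases did not follow the groups above. The 30 coding bases of that stretch, 10 codons of the canonical GENCODE transcript in GRCh37, are written in lower case, with capitals where a base differs from VIM. VIM lies at chr10:17277354-17277383 on the plus strand, KRT8 at chr12:53292468-53292497 on the minus strand, PRPH at chr12:49691326-49691355 and KRT18 at chr12:53346089-53346118, both on the plus strand, and KRT19 at chr17:39680034-39680063 on the minus strand. INA lies at chr10:105046909-105048138 on the plus strand and NES at chr1:156643298-156645015 on the minus strand, each with an intron inside the stretch.
VIM: acctacaggaagctgctggaaggcgaggag
PRPH: acctacCgCaagctgctggaGggcgaggag
KRT8: acctacaggaagctgctggaGggcgaggag
KRT18: acctacCgCCGCctgctggaagATgGCgag
KRT19: acctacCgCaGCctgctCgaGggACaggaA
INA: GcTtacaggaaActgctggaaggcgaggag
NES: acGtacaggaCCctCctggaGgCTgagAaC

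KRT8 matched VIM at 29 of the 30 bases, PRPH and INA at 27, and KRT18, KRT19 and NES at 21. The codons of KRT8 and PRPH gave the same 10 residues as those of VIM, those of INA gave 9, those of KRT19 gave 8 and those of KRT18 and NES gave 7. The genes also divided by exon structure. In NES, INA, NEFL and NEFM an intron cut the stretch after the same base, 8, whereas in VIM, PRPH and the keratins the stretch was whole within 1 exon. NES thus shared this intron with 3 of the 4 neuronal members, and the fourth, PRPH, was unsplit like VIM. The search pattern had no match in SYNM.

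Vimentin was the dominant filament transcript at every time. VIM (chromosome 10, 17270258 to 17279592, plus strand) was listed at 2948 FPKM on day 0, 3408 on day 1, 3914 on day 2, 2869 on day 4, 2641 on day 5, 1844 on day 11 and 1493 on day 18. As deposited, the level was highest on day 2 and lower on each later day. The last step depended on the scaling of the days, since VIM made up 0.578% of the day's total FPKM on day 11 and 0.594% on day 18. Even at its lowest, on day 18, VIM had rank 1 among all coding records, as it had on days 1 and 2, and it was never below rank 3. It made up between 71.6% (day 11) and 83.7% (day 2) of the summed FPKM of the 10 genes.

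NES (chromosome 1, 156638557 to 156647189, minus strand), which encodes nestin, had 513 FPKM on day 0, 468 on day 1, 515 on day 2, 507 on day 4, 474 on day 5, 310.4 on day 11 and 180.4 on day 18. The first 5 values lay close together, between 91.2% and 100.3% of day 0, and the drop came after replating, to 60.5% of day 0 on day 11 and 35.1% on day 18. NES thus lacked the early climb of VIM and ended at a lower share of its first level. The ratio of VIM to NES was 5.74 on day 0, 7.60 on day 2, 5.57 on day 5 and 8.28 on day 18.

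SYNM (chromosome 15, 99645286 to 99675799, plus strand) was a minor component, with 7.66 FPKM on day 0, 8.65 on day 1, 8.36 on day 2, 7.52 on day 4, 6.75 on day 5, 3.64 on day 11 and 5.18 on day 18. It followed VIM and NES down to day 11 but was higher again on day 18, at 67.7% of day 0. Over the 7 days, the Pearson correlation of log2(FPKM + 0.1) was 0.91 between VIM and NES, 0.85 between VIM and SYNM and 0.70 between NES and SYNM, and it was 0.82 between NES and the neuronal NEFL. These correlations describe 7 points that share the authors' scaling of each day and carry no test.

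**Figure D1:**
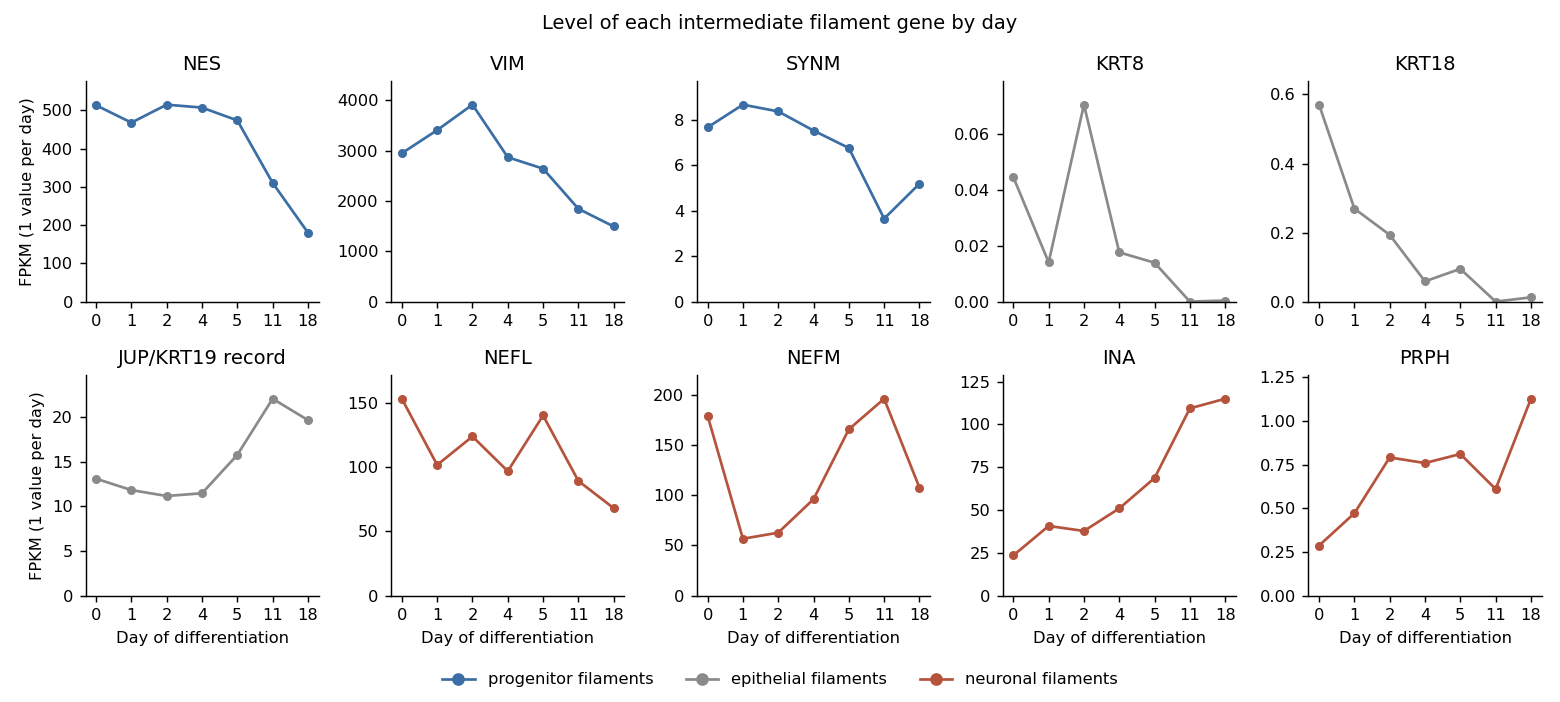
FPKM of each of the 10 genes (vertical axis, linear and starting at 0, with its own range in each panel) against the day of differentiation (horizontal axis, days evenly spaced). Each point is the authors' single value for that day, with no error available. VIM stayed at or above 1493 FPKM, KRT8 and KRT18 stayed below 0.6, and INA climbed from 23.5 to 115 while NEFL ended at its lowest value, 68.1.

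The epithelial keratins with a record of their own were at or near 0 on every day, the progenitors included. KRT8 (chromosome 12, 53290971 to 53343626, minus strand) had 0.0446 FPKM on day 0, 0.0140 on day 1, 0.0705 on day 2, 0.0176 on day 4, 0.0139 on day 5 and 0.000377 on day 18, and it was listed at 0 on day 11. It was the only member with a mean below 0.1 FPKM and was left out of the counts of changes. KRT18 (chromosome 12, 53342655 to 53346684, plus strand), its partner in simple epithelia, had 0.570 on day 0, 0.269 on day 1, 0.193 on day 2, 0.0586 on day 4, 0.0949 on day 5 and 0.0123 on day 18, and was listed at 0 on day 11. KRT18 was thus highest in the progenitors and lower on all later days, but at its highest it had rank 12108 of the coding records, and the size of its drop depended on the pseudocount. The exons of the KRT8 and KRT18 records overlap by 135 bases on opposite strands, and a second KRT8 record on chromosome 8 (62490715 to 62492468) had a mean of 0.0221 against 0.0230 for the record used.

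KRT19 had no record of its own. Its record (chromosome 17, 39679870 to 39942964, minus strand) also carries JUP, the gene of plakoglobin, a junction protein that binds cadherins, and 1 of its 5 isoforms runs from the KRT19 end into the JUP part. The record had 13.1 FPKM on day 0, 11.8 on day 1, 11.2 on day 2, 11.5 on day 4, 15.8 on day 5, 22.0 on day 11 and 19.6 on day 18. These values are higher on the days after replating, and they cannot be assigned to KRT19.

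A list of epithelial markers gave the background for these levels. It includes JUP, whose record is the one that also carries KRT19. Of 19 epithelial markers, 10 had a mean of at least 0.1 FPKM. CDH1, the gene of E-cadherin, reached at most 0.0292 FPKM and DSP, which anchors keratins at desmosomes, at most 0.0136. The desmosomal cadherin DSG2 was at 2.05 on day 0 and 0.363 on day 18, the splicing factor ESRP2 at 1.89 and 0.735, the desmosomal plakophilin PKP2 at 1.15 and 0.441, and TFAP2A, a transcription factor of surface ectoderm and neural crest, at 0.0415 and 2.67. These 4 had the largest changes among the markers with a mean of at least 1. Of the 10, 6 were at least 2-fold lower on day 18 and 1, TFAP2A, higher, beside 28.2% and 10.6% of coding records. Relative to the median change of records with a mean of at least 1 FPKM, 2 were lower and 2 higher. The shares of coding records on that scale were 12.7% and 18.5%. The summed level of the list went from 21.8 to 25.2 FPKM, of which the JUP/KRT19 record was the main part. That record alone went from 13.1 to 19.6 FPKM, so the sum gives no direction for the other markers. The part of epithelial cells in the keratin values was not tested. Of the 35 other cytoplasmic filament genes examined, which included 27 further keratins, only KRT10, IFFO1, IFFO2 and NEFH had a mean of at least 1. KRT10 was at 28.8 FPKM on day 0 and 15.8 on day 18, IFFO2, a filament-related orphan gene, at 12.5 and 3.50, and IFFO1 at 7.41 and 4.13. GFAP, the filament of astrocytes, was at 0.186 and 0.0394, and DES, the filament of muscle, at 0.527 and 0.0279.

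The neuronal filament genes did not move together. NEFL (chromosome 8, 24808471 to 24814131, minus strand) had 153 FPKM on day 0, 102 on day 1, 124 on day 2, 96.9 on day 4, 140.2 on day 5, 89.2 on day 11 and 68.1 on day 18. Its highest value was that of the day 0 cultures and its lowest that of day 18, with the core neurofilament chain 2.25 times higher on day 0 than on day 18.

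NEFM (chromosome 8, 24771274 to 24776605, plus strand) lies next to NEFL, with 31865 bases between both records. It had 179 FPKM on day 0, 56.7 on day 1, 62.8 on day 2, 96.1 on day 4, 166 on day 5, 196 on day 11 and 108 on day 18. It was thus 3.16 times lower after 1 day without FGF, came back to its first level by day 5, was highest on day 11 and was lower again on day 18. The drop from day 0 to day 1 put NEFM at percentile 0.808 of the changes of all coding records with a mean of at least 0.1 FPKM.

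INA (chromosome 10, 105036920 to 105050106, plus strand) had 23.5 FPKM on day 0, 40.7 on day 1, 37.8 on day 2, 50.9 on day 4, 68.7 on day 5, 109 on day 11 and 115 on day 18. It was above its day 0 level on every later day and 4.90 times as high on day 18. Its rank among coding records went from 3358 to 212. PRPH (chromosome 12, 49688909 to 49692480, plus strand) had 0.287 FPKM on day 0, 0.471 on day 1, 0.790 on day 2, 0.758 on day 4, 0.810 on day 5, 0.609 on day 11 and 1.13 on day 18. PRPH was also lowest on day 0 and highest on day 18, but INA was between 47.8 and 179 times as abundant per length.

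**Figure D2:**
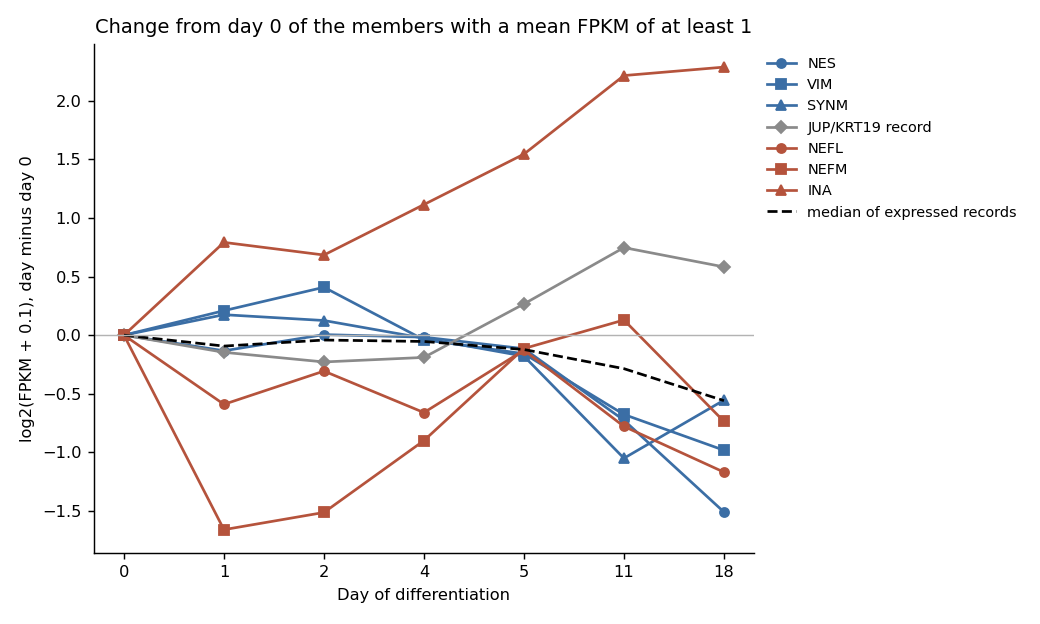
Difference in log2(FPKM + 0.1) from day 0 (vertical axis) by day (horizontal axis, evenly spaced) for the 7 members with a mean of at least 1 FPKM, blue for progenitor, grey for the merged JUP/KRT19 record and red for neuronal members. The dashed line is the median of the 14443 records with such a mean. INA ends at 2.29, NEFM reaches -1.66 on day 1, and NES ends at -1.51, below the median line at -0.56.

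The makeup of the neuronal filament transcripts therefore shifted toward INA. Per length, NEFL and NEFM made up 43.0% and 50.3% of the summed FPKM of the 4 neuronal genes on day 0, and INA 6.59%. On day 18, INA made up 39.4%, NEFM 36.9% and NEFL 23.3%. INA was listed above NEFL from day 11 and above NEFM on day 18, while NEFM had passed below NEFL on days 1, 2 and 4 and stood above it on the other days. For each unit of NEFM there were 0.131 of INA on day 0 and 1.07 on day 18. The ratio of NEFM to NEFL was 1.17 on day 0, 0.507 on day 2, 2.20 on day 11 and 1.58 on day 18.

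Added over the 4 genes, the neuronal filaments had 356 FPKM on day 0, 199.6 on day 1, 225 on day 2, 245 on day 4, 375 on day 5, 395 on day 11 and 292 on day 18. The last value was below the first as deposited, by -0.29 on the log2 scale, but this direction turned with the scaling of the days. Against the median change of expressed records the neuronal sum was at 0.27, and as a share of the total FPKM of the day it went from 0.0861% to 0.116%. The progenitor sum went from 3469 to 1678 FPKM, a log2 change of -1.05, which was -0.49 against the median and went from 0.838% to 0.668% of the total. As a share of the 10 genes, they made up 9.28% on day 0, 4.87% on day 1, 4.82% on day 2, 6.72% on day 4, 10.7% on day 5, 15.3% on day 11 and 14.7% on day 18. The share was thus higher on day 18 than on day 0, and a share within the 10 genes does not depend on the scaling of the days. With VIM left out, the neuronal share was 40.0% on day 0 and 58.7% on day 18.

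**Figure D3:**
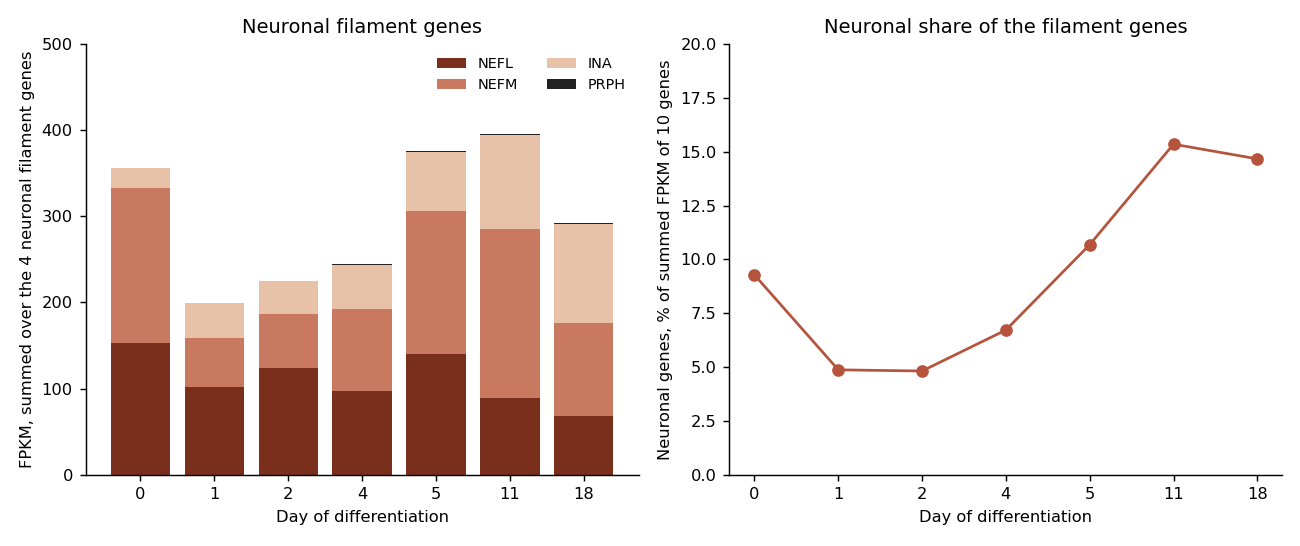
Left, FPKM of NEFL, NEFM, INA and PRPH stacked by day (bars start at 0). Right, their sum as a percent of the summed FPKM of all 10 genes. The bars show the sum at 356 on day 0, 199.6 on day 1 and 395 on day 11, with INA taking 6.59% of it on day 0 and 39.4% on day 18, and the line reaches 15.3% on day 11.

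From day 0 to day 18, 9 members had a mean of at least 0.1 FPKM, the limit used for counts. INA and PRPH were at least 2-fold higher on the log2(FPKM + 0.1) scale, by 2.29 and 1.66, and NES, NEFL and KRT18 at least 2-fold lower, by -1.51, -1.17 and -2.58. Of the 14107 coding records with such a mean, 10.6% were as much higher and 28.2% as much lower, so the 3 lower members of 9 were not far from the share of all coding records. VIM (-0.98), NEFM (-0.74), SYNM (-0.55) and the JUP/KRT19 record (0.58) stayed within 2-fold. The median of the 9 members was -0.74 against -0.52 for all such coding records.

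Among the 14443 records that averaged 1 FPKM or more, the median change was itself -0.56, so the scaling of the days bears on the directions. Relative to that median, INA was at 2.85, PRPH at 2.22 and the JUP/KRT19 record at 1.14, the 3 members at least 2-fold higher, beside 18.5% of coding records. KRT18, at -2.02, was the only member at least 2-fold lower, beside 12.7% of coding records. NES was at -0.95, NEFL at -0.61, VIM at -0.42 and NEFM at -0.18, each in the direction it had as deposited, while SYNM lay on the median at 0.0038 and lost its direction.

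**Figure D4:**
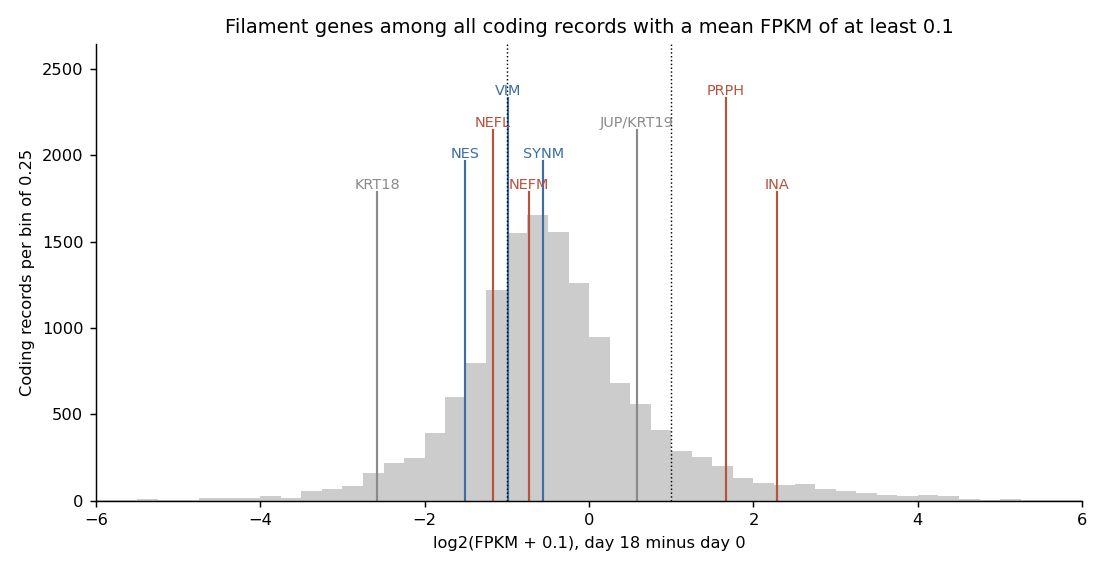
Histogram of the difference in log2(FPKM + 0.1) between day 18 and day 0 (horizontal axis) over the 14107 coding records with a mean of at least 0.1 FPKM (vertical axis, records per bin of 0.25), with the 9 members above that limit as coloured lines and dotted lines at -1 and 1. INA at 2.29 and PRPH at 1.66 lie right of the dotted line, whereas NEFL and NEFM lie left of 0 with NES and VIM.

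Between neighbouring days, changes of that size were few. From day 0 to day 1, NEFM was the only member at least 2-fold lower, by -1.66, beside 3.68% of coding records, and 2.76% relative to the median, and no member was as much higher, beside 4.61%. No member passed 2-fold in either direction at the other 5 steps. At these, between day 1 and day 2 0.269% of coding records were higher and 0.298% lower, between day 2 and day 4 0.184% and 1.11%, and between day 4 and day 5 0.432% and 0.106%. Between day 5 and day 11 they were 2.56% and 4.57%, and between day 11 and day 18 1.66% and 3.54%. Relative to the median, PRPH was at 1.07 from day 11 to day 18, beside 3.30% of coding records.

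The step across replating, from day 4 to day 5, was the only one at which all 3 abundant neuronal members were higher together, NEFM by 0.79, NEFL by 0.53 and INA by 0.43. They lay at percentiles 98.7, 96.1 and 94.3 of all coding records, with NES at 41.0 and VIM at 36.0. From day 5 to day 11 they separated, INA at 0.67 and NEFM at 0.24 against NEFL at -0.65, while NES was at -0.61, VIM at -0.52 and SYNM at -0.87. From day 11 to day 18, NEFM was at -0.87, NEFL at -0.39 and INA at 0.07. The surface, the lifting of the cells and the extra day cannot be told apart at the step from day 4 to day 5.

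Markers of other states moved over the same days. The counts past 2-fold in the lists below stand beside 10.6% of coding records higher and 28.2% lower. Relative to the median, these shares were 18.5% and 12.7%. On day 0, the defining progenitor markers SOX2, MSI1, SOX1 and PAX6 were listed at 126, 47.8, 11.1 and 4.31 FPKM, and on day 18 at 66.1, 35.2, 8.61 and 10.4. Relative to the median, SOX2 was at -0.38, MSI1 at 0.12, SOX1 at 0.20 and PAX6 at 1.81. Some other genes of the progenitor list were higher late, while HES1 went from 15.4 to 10.1 FPKM. Of the 12 genes of this list, 11 passed the limit, 5 were at least 2-fold higher on day 18 and 1 lower. The summed level went from 464 to 512 FPKM, and FABP7 alone went from 195 to 258. The radial glia genes HES5, SOX9 and SLC1A3 were at 1.95, 7.25 and 16.2 FPKM on day 0 and 20.0, 34.8 and 63.1 on day 18, NR2E1 at 0.0392 and 0.529, and the stem cell surface gene PROM1 at 38.8 and 5.06. The part of the remaining progenitors in the levels of day 18 was not tested. Among 16 general neuronal markers, 14 had a record above the limit and 11 of these were at least 2-fold higher on day 18, none lower, with a median of 2.74. Their summed level went from 665 to 1872 FPKM, and STMN2, which binds tubulin in growing axons, went from 32.3 to 727, MAPT, the gene of tau, from 0.517 to 36.4, DCX, a microtubule protein of migrating neurons, from 5.46 to 88.0, and ELAVL4, an RNA-binding protein of neurons, from 0.149 to 4.89. As deposited, NEFL and NEFM were thus lower on day 18 while most general neuronal markers were higher. For NEFM this depended on the scaling of the days. Its share of the day's total FPKM was 0.0433% on day 0 and 0.0429% on day 18, and its rank went from 279 to 234. The share of NEFL went from 0.0370% to 0.0271%, and its rank from 360 to 437. Among 13 markers of peripheral and motor neurons, where PRPH is typical, 7 passed the limit and 4 of them were at least 2-fold higher. POU4F1, a factor of sensory neurons, went from 2.29 to 24.4 FPKM, and SCN9A, a sodium channel of sensory neurons, from 3.89 to 3.50.

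All 10 mitotic genes were at least 2-fold lower on day 18, and their sum went from 735 to 129 FPKM, with the kinases AURKB from 74.1 to 8.41, AURKA from 30.9 to 3.55 and BUB1 from 38.2 to 4.98, and the cyclin CCNB1 from 145 to 20.3. Of 15 mesenchymal markers, which matter here because VIM is also the filament of mesenchyme, 13 passed the limit, 11 were at least 2-fold lower and none higher. Relative to the median, 9 were at least 2-fold lower. Both counts of lower markers include PDGFRB, whose record also carries CSF1R, so its level cannot be assigned to PDGFRB. Their sum was 825 FPKM on day 0 and 68.5 on day 18, with TAGLN, an actin-binding protein of contractile cells, at 367 and 19.4, MYL9, a myosin light chain, at 140 and 7.34, COL1A2, a collagen chain, at 33.6 and 3.81, and POSTN, a matrix protein, at 12.5 and 0.229. COL1A1 was listed at 0 on all 7 days and DCN at 0.108 on day 0. Other matrix genes of the list were present, with COL3A1 at 238 and 30.5 and LUM at 5.80 and 2.06. Whether the 0 of COL1A1 reflects absent RNA cannot be told from these values. The part of mesenchymal and dividing cells in the levels of VIM and NES was not tested. In the astrocyte list, 6 of 8 passed the limit and 4 were at least 2-fold lower, or 3 relative to the median. The gap junction gene GJA1 was at 78.3 and 15.0, the hyaluronan receptor CD44 at 12.4 and 2.70 and the glycolytic enzyme ALDOC at 3.72 and 0.946, while SLC1A2, a glutamate transporter, was at 0.983 and 17.9, the only one higher. In the oligodendrocyte list, 4 of 8 passed, with 2 at least 2-fold lower and 1 higher, or 0 and 1 relative to the median. PDGFRA, which passed and stayed within 2-fold, has a record that also carries FIP1L1. The 2 of 9 pluripotency markers that passed were both lower, LIN28B at 14.3 and 2.55 and DPPA4 at 9.72 and 2.25. POU5F1 and NANOG did not pass and were near 0 already on day 0, at 0.0886 and 0.0129 FPKM.

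The nuclear lamins, the filament proteins of the nuclear envelope, were all at least 2-fold lower. LMNB1 had 160.2 FPKM on day 0 and 39.5 on day 18, LMNA 88.9 and 23.3, and LMNB2 79.6 and 27.3. Relative to the median, LMNB2 was at -0.98, just inside 2-fold. Of 14 genes that link or turn over filaments, 11 passed the limit and 9 stayed within 2-fold, with a median of -0.32. CTNNAL1, related to the junction protein alpha-catenin, was lowest at -2.30, and TCHP, a keratin-binding protein, was at -1.29. DNAJB6, a chaperone known to bind keratin, was at -0.50. DST, which encodes a large linker between filaments and microtubules, had 45.3 FPKM on day 0, 34.1 on day 1, 43.1 on day 11 and 38.1 on day 18, and TRIM2, a ubiquitin ligase known to bind NEFL, had 33.3 on day 0 and 49.0 on day 18. NEFH, the heavy neurofilament chain, had 2.51 and 1.45, so it was low throughout.

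**Figure D5:**
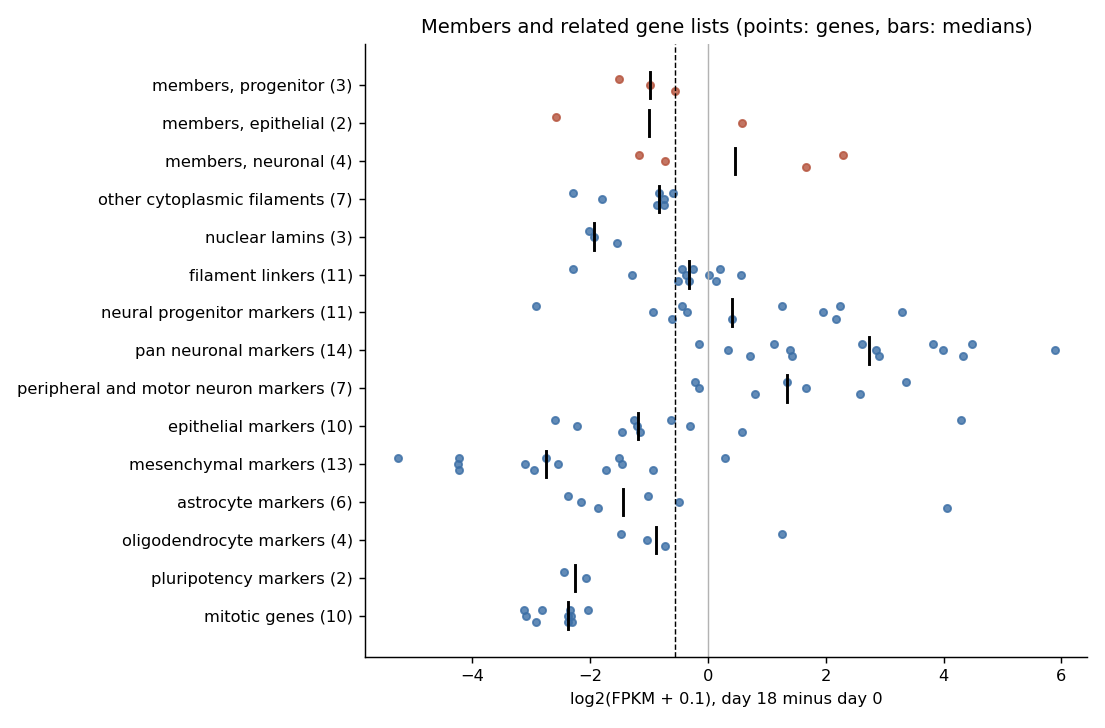
Difference in log2(FPKM + 0.1) between day 18 and day 0 (horizontal axis) for each gene with a mean of at least 0.1 FPKM (points), by list (vertical axis, number of such genes in brackets), with the list median as a bar and the median of expressed records, -0.56, as a dashed line. The 3 progenitor members lie at or left of the dashed line, the 4 neuronal members lie on both sides of it, and general neuronal markers have their median at 2.74.

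The time course of NEFM had fewer close matches than those of NES, VIM and KRT18, the only other members compared in this way. How many matches a coding record has in general was not examined. Among 10970 other single-symbol coding records on primary chromosomes with a mean of at least 1 FPKM, 21 (0.191%) had a Pearson correlation of at least 0.9 with NEFM in log2(FPKM + 0.1) over the 7 days, against 27.9% for NES, 16.3% for VIM and 6.55% for KRT18. The closest to NEFM were DST (0.98), SUV420H1 (0.97) and FAM36A (0.97), although DST varied only between 34.1 and 45.3 FPKM. The closest to NES were SLC30A7, CUTA and DPY19L4, at 0.996 or above, and to VIM SFI1, ZNF621 and RNPEPL1, also at 0.996 or above. VWCE (0.99), TNFRSF10D (0.99) and TACC1 (0.99) were closest to KRT18, with TACC1 at 51.6 FPKM on day 0 and 5.13 on day 18. Correlations over 7 days that share their scaling are given as descriptions only.

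Overlap with other genes limits some values. No stretch of the length of a read was shared between members on the same strand. Sharing between members on opposite strands was not searched, and the exons of the KRT8 and KRT18 records overlap there by 135 bases. No stretch of NES, KRT18 or KRT19 was found in a GENCODE gene outside the set. Such stretches were found in other genes for 41.2% of PRPH (all in the antisense TROAP-AS1), 23.8% of SYNM, 22.3% of NEFM, 17.7% of NEFL, 16.4% of VIM, 11.2% of INA (in NT5C2) and 1.52% of KRT8 (pseudogenes such as KRT8P3). The deposited catalogue also holds an antisense record over 98.8% of the exon bases of NES and one over 95.1% of those of VIM, with mean levels of 0.978% and 0.203% of the member. Another record on the opposite strand covers 26.4% of the exon bases of NEFM, with a mean level of 2.29% of NEFM. Antisense records also cover 79.6% of the exon bases of KRT8 and 73.3% of those of PRPH, with mean levels of 135% and 6.49% of the member. As counting by strand is not stated, the values of PRPH, KRT8 and the antisense records are uncertain.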

How the data were processed

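Paired-end reads of polyadenylated RNA were aligned to hg19 with TopHat2, assembled with Cufflinks and quantified with Cuffdiff2 by the authors, at default options and in versions not given in the sources used here. The FPKM values deposited by the authors hold 1 value per record and day, and the number of columns of single samples was 0. The second deposited table was used for symbols, exon coordinates and strand only. Its status, fold changes, test statistics, p-values and q-values are the authors' own comparisons and were not used.

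Changes were computed as differences of log2(FPKM + 0.1), which understates changes of low genes, with Python 3.11.15 and pandas 2.3.3. Counts used coding records with a mean of at least 0.1 FPKM and a limit of 2-fold. The calculation was checked on values with known changes. Named were all 10 members, the 3 records most like each of NES, VIM, KRT18 and NEFM, and up to 4 genes per list with the largest change and a mean of at least 1. Other list genes (CDH1, DSP, GFAP, DES, DST, COL1A1, COL3A1, LUM, DCN, SOX1, SOX2, MSI1, PAX6, NR2E1, MAP2, GAP43, THY1, HES1, FABP7, PDGFRB, L1CAM, SNAP25, SYT1, POU5F1, NANOG) were named after their values were seen. Some genes of the lists are not reported here by name. The members and lists were chosen with earlier results of these data known. Every member record lay on the chromosome and strand of its GENCODE v44lift37 gene (GRCh37).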

Additional observations from a re-analysis of the deposited data

How the results depend on the processing

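No paired analysis was possible because the table holds 1 value per day, and for the same reason no culture could be left out. The 2 members at least 2-fold higher on day 18 became 1 at a limit of 4-fold, with a pseudocount of 1, or with a mean of at least 1 FPKM required. The 3 lower members became 5 at 1.5-fold, 1 at 4-fold and 1 when changes were taken from the median record. Without VIM, the neuronal share was 40.0% on day 0, 29.0% on day 1, 29.6% on day 2, 31.7% on day 4, 43.0% on day 5, 54.0% on day 11 and 58.7% on day 18. The change of SYNM went from -0.55 to 0.0038 relative to the median. In alternatives chosen after seeing the data, the log2 change of the summed neuronal FPKM, -0.29, turned to 0.27 relative to the median and 0.43 as a share of the day's total FPKM, while that of the progenitor sum, -1.05, became -0.49 and -0.33. The change of KRT18, -2.58, was -0.63 with a pseudocount of 1 and -4.70 with 0.01, and that of PRPH, 1.66, was 0.72 with 1, since both genes lie near these pseudocounts. Leaving out the merged record or summing all records of a symbol moved no share by over 1.5 times. Depth is unknown, so no detection limit can be set for KRT8 and KRT18.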

Other observations

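The early dip of NEFM was shared by another growing-axon gene in the general neuronal list, picked after its values were seen. GAP43, a membrane protein of growth cones, had 193 FPKM on day 0, 55.7 on day 1, 56.6 on day 2, 63.6 on day 4, 122 on day 5, 153 on day 11 and 173 on day 18. Unlike NEFM, it did not drop again at the end. Of the same list, L1CAM was also lower on day 1 than on day 0, at 16.4 against 24.9 FPKM. So were SNAP25, at 2.11 against 2.63, and SYT1, at 15.3 against 15.6. The other genes of the list with a record were higher on day 1, among them MAP2, STMN2 and DCX, the last at 11.4 against 5.46 FPKM. THY1, a surface protein of neurons and fibroblasts from the mesenchymal list, had 15.7 FPKM on day 0 and 2.64 on day 1.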
